A study of Mus musculus with 6 samples.

Results

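The miRNA genes followed here lie inside the mouse Hox clusters and number 5: Mir10a, Mir10b, Mir196a-1, Mir196a-2 and Mir196b. They were chosen by name, and each was found by the exact match of its deposited position to the miRNA gene of that name in GENCODE release M21 on GRCm38. All 5 were listed, among 1823 features in all and 912 features annotated as miRNAs. The libraries were made from bone marrow cells, which the series' design text describes as lineage-negative (Lin-), the fraction depleted of mature blood cells. There were 3 libraries labelled Mat KO, a maternal knockout at the imprinted Dlk1-Gtl2 locus (called KO here), and 3 wild-type libraries (WT). The labels do not give the allele, the strain or the age of the mice, or whether the 3 libraries of a genotype came from separate animals. The p-values therefore rest on the scatter of libraries that may be technical repeats. Counts or levels given for the 3 libraries of a genotype are in the order of their replicate numbers.

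Hox genes encode transcription factors that give cells their position along the body axis, and in blood several of them are active in stem and progenitor cells and are switched off as cells mature. The miR-10 and miR-196 families are old residents of the Hox clusters and lie on the same strand as their Hox neighbours. Their mature forms repress target mRNAs through a short seed at the 5′ end, and Hox mRNAs are among the known targets: miR-196a directs cleavage of the Hoxb8 mRNA in mouse embryos. Mir10a, Mir10b and Mir196b are known as miRNAs of primitive blood cells, and Mir196b is also known from leukaemias with high HOXA9. The libraries were cut from a gel for inserts of snoRNA size, which are longer than a mature miRNA. Reads assigned to these features are therefore described as reads of the precursor's region. The counts hold no read lengths, so reads of a precursor and of its mature miRNA cannot be told apart. The levels are thus not taken as a measure of the mature miRNA.

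The precursors are shown because the families differ between members outside the seed, and that decides which reads can be assigned to 1 gene. In the hairpins, from RefSeq on GRCm38.p6 and at the same positions as the counted features, capitals mark the annotated mature arms.
Mir10a hairpin: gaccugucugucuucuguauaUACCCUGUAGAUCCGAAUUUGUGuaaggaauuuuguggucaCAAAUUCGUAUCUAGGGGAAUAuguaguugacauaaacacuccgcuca
Mir10b hairpin: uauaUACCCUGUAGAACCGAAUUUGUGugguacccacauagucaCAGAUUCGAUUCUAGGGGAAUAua
Mir196a-1 hairpin: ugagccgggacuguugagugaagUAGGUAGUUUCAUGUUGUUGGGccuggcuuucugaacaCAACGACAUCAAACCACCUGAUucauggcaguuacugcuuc
Mir196a-2 hairpin: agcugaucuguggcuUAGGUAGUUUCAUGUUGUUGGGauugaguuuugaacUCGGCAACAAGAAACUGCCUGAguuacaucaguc
Mir196b hairpin: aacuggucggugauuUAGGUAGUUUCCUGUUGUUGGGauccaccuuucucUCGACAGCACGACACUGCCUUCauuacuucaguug

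The mature 5p arms fall into 2 seed groups. Below, capitals mark the seed, bases 2 to 8.
miR-10a-5p: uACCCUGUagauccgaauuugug
miR-10b-5p: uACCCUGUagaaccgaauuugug
miR-196a-5p: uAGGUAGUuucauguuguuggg
miR-196b-5p: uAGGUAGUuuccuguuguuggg
Counted from 1 at the 5′ end, miR-10a-5p and miR-10b-5p differ by the single substitution U12A, and miR-196a-5p and miR-196b-5p by A12C. In the RefSeq table each of the 2 seeds belongs to these 2 mature names alone. Mir196a-1 and Mir196a-2 give the same mature 5p arm, so the longest run that their hairpins share is 22 nt. A read confined to that run could come from either gene. Mir10a and Mir10b share a run of at most 15 nt, and their hairpins are 55 edits apart, a count that includes their difference in length. A read confined to the 5p arm can tell them apart by that single base only. The hairpins are 110 nt (Mir10a), 102 nt (Mir196a-1), 85 nt (Mir196a-2 and Mir196b) and 68 nt (Mir10b) long. The predicted minimum free energy was the least negative for the shortest hairpin, at -24.4 kcal/mol for Mir10b, and the most negative for Mir196a-2, at -45.0 kcal/mol. It did not follow length: Mir10a, Mir196b and Mir196a-1 lay between, at -34.0 to -35.9 kcal/mol.

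All coordinates are on GRCm38. Mir10a (ENSMUSG00000065519.1) is on the plus strand of chromosome 11, 96317165 to 96317274, in no other annotated gene, and its 3′ end is 992 nt from Hoxb4. Mir10b (ENSMUSG00000065500.3) is on the plus strand of chromosome 2, 74726070 to 74726137, in introns of Hoxd3 and Hoxd4 transcripts. The nearest Hoxd4 exon lies 91 nt upstream of it. Mir196a-1 (ENSMUSG00000065546.1) is on the plus strand of chromosome 11, 96265164 to 96265265, in no other annotated gene, between Hoxb13 and Hoxb9. Mir196a-2 (ENSMUSG00000065488.2) is on the plus strand of chromosome 15, 102973350 to 102973434, between Hoxc10 and Hoxc9 and in an intron of a long Hoxc5 transcript. Mir196b (ENSMUSG00000065443.1) is on the minus strand of chromosome 6, 52230081 to 52230165. It lies inside an exon of 2 Hoxa9 transcripts, neither of which is annotated as coding for protein. No other listed feature overlaps any of the 5. GENCODE has 7 miRNA genes in the 4 Hox clusters, and the libraries listed 1 more besides these 5: Mir615, in Hoxc, with 1 read in KO replicate 3 and none elsewhere.

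Library totals were 47299957 to 51837721 counts in the KO and 45398303 to 53299322 counts in the WT libraries. Features with a symbol starting with Mir, the named miRNAs, numbered 479, and they held 0.215% to 0.374% of the counts of a KO library and 0.162% to 0.375% of those of a WT library. Levels are given as CPM, the count divided by the library total and multiplied by 1e6. Intervals of levels, shares and pooled ratios are 95% exact Poisson or exact binomial intervals and cover counting error only. Those of log2 fold changes are 95% intervals from the SE of the fit, which includes the scatter between libraries. In bulk RNA, fewer cells of a type and less RNA per cell cannot be told apart.

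The 5 precursors covered a wide range of levels, and Mir10a had the highest in every library. Mir10a held 97.6% to 98.8% of the reads of the 5 in the KO and 97.8% to 99.2% in the WT libraries. By mean CPM over the 6 libraries Mir10a ranked 8 among the 479 named miRNAs, Mir10b 117, Mir196b 121, Mir196a-2 251 and Mir196a-1 332. The most abundant named miRNA was Mir21a, with a mean of 968 CPM. Per length, the mean level was 537 CPM per kb for Mir10a, 8.18 for Mir10b, 5.62 for Mir196b, 0.318 for Mir196a-2 and 0.0952 for Mir196a-1.

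Of the 4 neighbouring pairs in this order of levels per length, Mir10a was above Mir10b in 6 of 6 libraries and Mir196b above Mir196a-2 in 6 of 6. An exact two-sided permutation test paired by library gave p = 0.0312 for each, the smallest that 6 libraries allow, and an adjusted p of 0.0625 over the 4 pairs. The pairs were set by the mean levels of these same libraries, so these tests describe the order and are no independent test of it. Mir10b and Mir196b did not differ beyond their spread: Mir10b was above in 3 libraries and below in 3 (mean difference 2.55 ± 5.89 CPM per kb, SD, n = 6, exact permutation p = 0.375, adjusted p = 0.375). Mir196a-2 was above Mir196a-1 in 4 libraries and both were at 0 in the other two (exact permutation p = 0.125, adjusted p = 0.167).

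**Figure D1:**
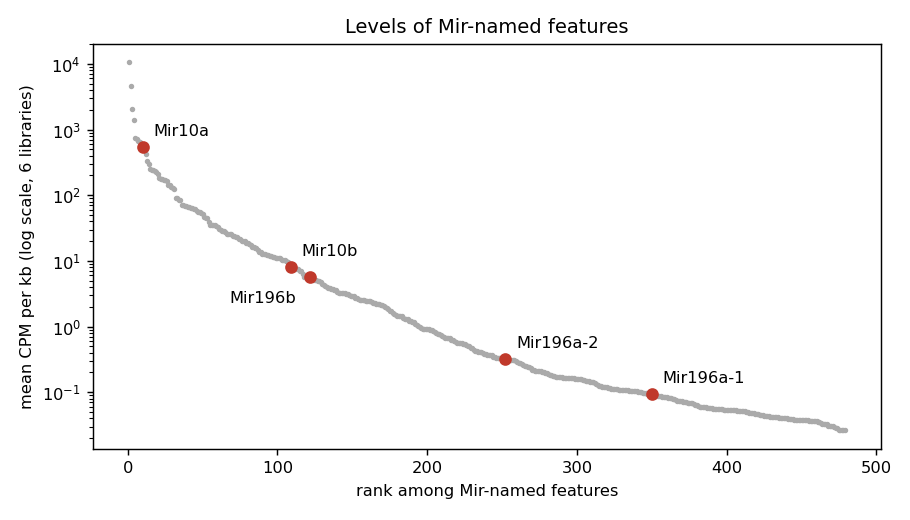
Mean level of each named miRNA feature over the 6 libraries (CPM per kb, log scale) against its rank by that level, with the 5 Hox-cluster precursors in red. Mir10a sits near the top at 537 CPM per kb, Mir10b and Mir196b lie close together at 8.18 and 5.62, and the Mir196a genes lie in the lower part of the curve.

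The knockout question was whether these precursors differ between the genotypes, and none of them passed any test run. Of the 5, 3 passed the filter on low counts (Mir10a, Mir10b and Mir196b) and none of the 3 was called by edgeR's quasi-likelihood test. The background was low too: 1 of 624 tested features was called (0.16%), the locus snoRNA DQ267100, and 40 had an unadjusted p under 0.05. DESeq2 also called 1 feature, and none of the 3. None of the 5 had genotypes that did not overlap in CPM, against 15.2% of the 624 tested features and 6.76% of the 148 tested named miRNAs.

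Mir10a, the precursor of miR-10a, had 2614, 3351 and 2913 reads in the KO libraries, against 2036, 3864 and 2573 reads in the WT libraries. Scaled to depth this was 53.9, 64.6 and 61.6 CPM in the KO libraries and 38.2, 85.1 and 50.7 CPM in the WT libraries. The 3 KO libraries lay inside the range of the WT libraries. The means were 60.1 ± 5.5 CPM in KO and 58.0 ± 24.3 CPM in WT (SD, n = 3 each), so the highest library was 1.20 times the lowest in KO and 2.23 times in WT. The log2 fold change was 0.11 (SE 0.31, 95% interval -0.63 to 0.86), with an adjusted p of 0.941 by edgeR. The value depended on single WT libraries. Without WT replicate 2 the log2 fold change rose to 0.58 (SE 0.24, with an edgeR adjusted p of 0.505), and leaving out WT replicate 1 gave -0.017.

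Mir10b, with the same seed, had 5, 52 and 17 reads in the KO libraries and 7, 53 and 29 reads in the WT libraries. That is 0.103, 1.003 and 0.359 CPM in the KO libraries and 0.131, 1.17 and 0.571 CPM in the WT libraries. Each genotype held 1 library near 1 CPM and 1 near 0.1 CPM, and the counting intervals of the extremes did not meet (0.0335 to 0.241 and 0.749 to 1.32 CPM in KO, 0.0528 to 0.271 and 0.874 to 1.53 CPM in WT). The highest library was 9.73 times the lowest in KO and 8.89 times in WT. The means were 0.489 ± 0.464 CPM in KO and 0.623 ± 0.520 CPM in WT (SD, n = 3 each). The log2 fold change was -0.26 (SE 0.93, 95% interval -2.49 to 1.96), with an adjusted p of 0.947 by edgeR. It was -1.30 without KO replicate 2, -0.65 without WT replicate 1 and -0.0056 when KO replicate 3 was left out, and the sign turned on leaving out KO replicate 1 (0.31) or WT replicate 2 (0.64).

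Mir196b, the precursor next to Hoxa9 and Hoxa10, had 26, 23 and 25 reads in the KO libraries and 10, 29 and 27 reads in the WT libraries. Scaled to depth this was 0.536, 0.444 and 0.529 CPM in the KO libraries and 0.188, 0.639 and 0.532 CPM in the WT libraries. WT replicate 1 was the lowest of the 6 and the other 5 libraries lay close together. The means were 0.503 ± 0.051 CPM in KO and 0.453 ± 0.236 CPM in WT (SD, n = 3 each). The log2 fold change was 0.22 (SE 0.46, 95% interval -0.87 to 1.31), with an adjusted p of 0.907 from edgeR, and leaving out WT replicate 1 gave -0.063. Leaving out KO replicate 2, WT replicate 2 or WT replicate 3 gave 0.36, 0.62 and 0.45 in turn.

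The 2 genes of miR-196a were close to the limit of detection. Mir196a-1 had 0, 2 and 0 reads in the KO libraries and 0, 0 and 1 reads in the WT libraries. Mir196a-2 had 0, 4 and 1 reads in KO and 0, 2 and 1 reads in WT. A count of 0 allows up to 0.0563 to 0.0661 CPM in these libraries (3 counts of the total). Both genotypes had 3 reads or fewer of Mir196a-1, so no ratio of its levels is given, and its fitted values rest on those reads. Pooled over libraries, Mir196a-2 was 1.69 times as high in KO as in WT, with a counting interval of 0.328 to 10.87. KO replicate 2 held 4 of the 5 KO reads, and the fitted log2 fold change turned to -0.66 without it, against 0.78 with all libraries. Neither was called in the fit with no filter (adjusted p = 0.864 for Mir196a-1 and 0.803 for Mir196a-2 by edgeR), where 13 of 1823 features were called (0.713%). Differences in the Mir196a genes were not detectable at this depth.

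**Figure D2:**
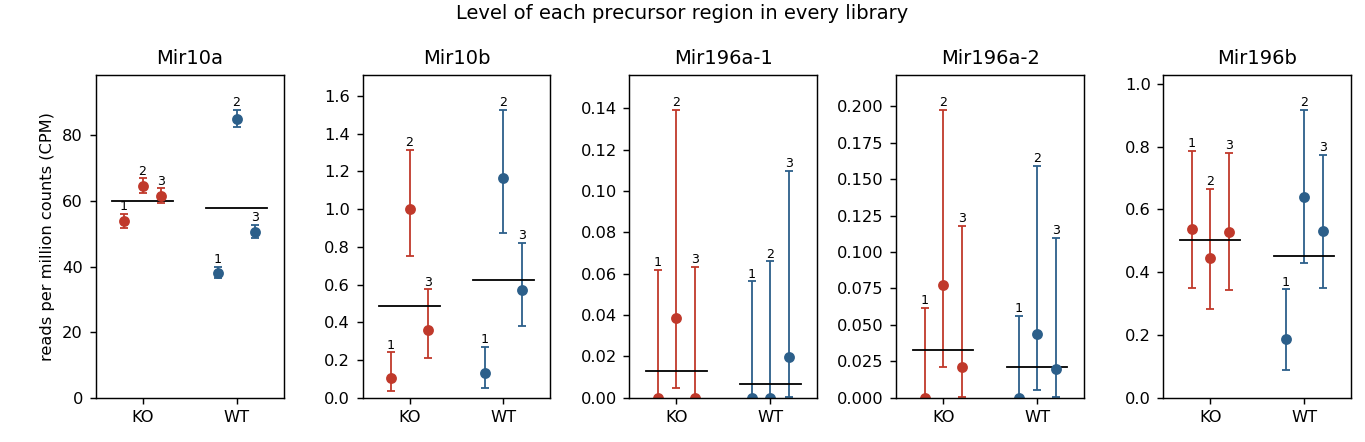
Level in CPM of each of the 5 precursor regions in every library, KO on the left in red and WT on the right in blue, numbered by replicate, with 95% exact Poisson intervals (for a count of 0, a bar up to the limit of 3 counts) and the mean of each genotype as a black line. The vertical scale differs between panels. The genotypes overlap in all 5 panels, Mir10b runs from 0.103 to 1.003 CPM in KO and from 0.131 to 1.17 CPM in WT, and Mir196b is lowest in WT replicate 1.

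No sum or share over the families passed a test between the genotypes either. The Mir10 pair summed to 60.5 ± 5.9 CPM in KO and 58.6 ± 24.8 CPM in WT (exact two-sided permutation p = 0.9), and the 3 Mir196 genes to 0.548 ± 0.012 CPM in KO and 0.481 ± 0.260 CPM in WT (exact permutation p = 1.0; SD, n = 3 each). With 3 libraries against 3 the smallest p is 0.1. Without WT replicate 1 the Mir196 difference turned to -0.08 CPM, and the Mir10 difference ranged from -8.22 CPM without that library to 15.8 CPM without WT replicate 2. It was also below 0 when KO replicate 2 (-0.633 CPM) or WT replicate 3 (-1.77 CPM) was left out. The Mir196 genes took 0.983%, 0.845% and 0.880% of the reads of the 5 in the KO libraries and 0.487%, 0.785% and 1.10% in the WT libraries (exact permutation p = 0.7). That difference of 0.111 percentage points turned to -0.0412 once WT replicate 1 was left out.

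The balance within the Mir10 pair moved more between libraries than between genotypes. Mir10b was 0.191% of the pair's reads in KO replicate 1 (95% exact binomial interval 0.0620% to 0.445%), 1.53% in KO replicate 2 (1.14% to 2.00%) and 0.580% in KO replicate 3 (0.338% to 0.927%). It was 0.343% in WT replicate 1 (0.138% to 0.705%), 1.35% in WT replicate 2 (1.02% to 1.77%) and 1.11% in WT replicate 3 (0.748% to 1.60%). The means were 0.766% ± 0.688 in KO and 0.937% ± 0.528 in WT (SD, n = 3 each, exact permutation p = 0.9). The difference of -0.17 percentage points turned to 0.117 without KO replicate 1 and 0.0378 without WT replicate 2. Leaving out KO replicate 2 gave -0.551 and leaving out WT replicate 1 gave -0.467. Leaving out replicate 3 of KO or of WT gave -0.0773 and -0.0815 in turn.

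The spread of Mir10a followed the libraries' general miRNA level in part, and Mir10b went well beyond it. Mir196b moved with the general level in WT replicates 1 and 2, but ran in the opposite order over the KO libraries. Among the other 145 tested named miRNAs, the median log2 level relative to the mean of the 6 libraries was -0.17, 0.66 and 0.04 in the KO libraries and -0.65, 0.34 and -0.24 in the WT libraries. On the same scale Mir10a was at -0.01, 0.24 and 0.06 in KO and at -0.63, 0.54 and -0.20 in WT. Mir196b was at 0.31, 0.04 and 0.17 in KO and at -1.14, 0.44 and 0.20 in WT. Mir10b was at -1.57, 1.30 and -0.19 in KO and at -1.40, 1.42 and 0.44 in WT. WT replicate 1 was thus low for the named miRNAs in general, for Mir10a by about as much, and for Mir196b and Mir10b by more. In KO replicate 2, where the other named miRNAs were highest, Mir10a and Mir196b were lower than their median and Mir10b was higher.

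Scaled to the named miRNAs instead of all counts, Mir10a had 25068, 17274 and 20579 reads per 1e6 named miRNA reads in the KO libraries and 23514, 22710 and 23635 in the WT libraries. The WT libraries were close together on this scale and the KO libraries were spread, the reverse of the CPM scale. The within-genotype SD of log2 CPM was 1.43 for Mir10b, and 1 of the 148 tested named miRNAs had a larger one. The median of the 148 was 0.55, and Mir10a had 0.43 and Mir196b 0.61. Among 49 other named miRNAs within 1 log2 unit of Mir10b's level, whose median SD was 0.61, none varied more.

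**Figure D3:**
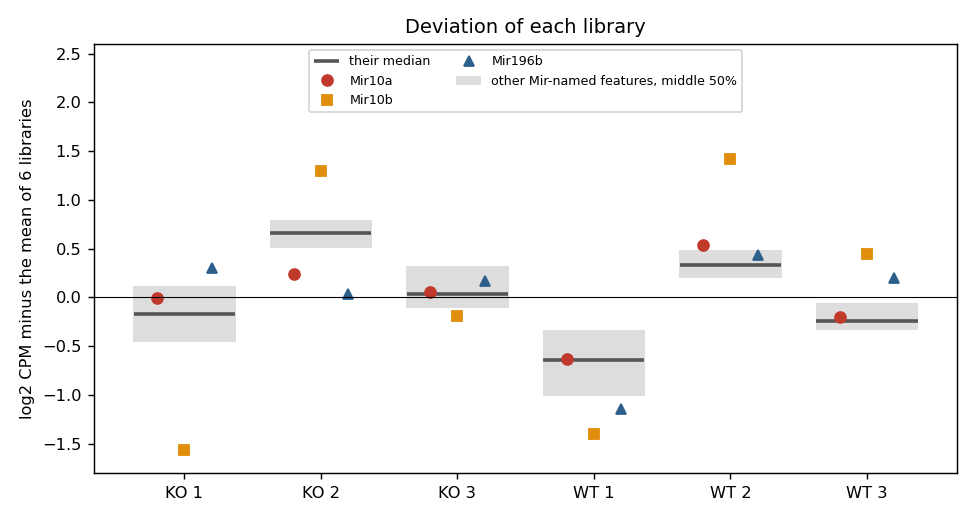
Log2 CPM of Mir10a (red circles), Mir10b (orange squares) and Mir196b (blue triangles) minus each one's mean over the 6 libraries, KO libraries left and WT libraries right, beside the middle 50% (grey) and median (dark line) of the other 145 tested named miRNAs. Mir10a ranges from -0.63 to 0.54 and Mir10b from -1.57 to 1.42.

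Features with the most similar profile over the 6 libraries were found by the root mean square difference of centred log2 CPM, among tested features within 2 log2 units of the member's level. For Mir10a they were Mir101b (0.12), Gm24111 (0.16) and Mirlet7f-2 (0.18), where the median over 142 features was 0.50. Mir101b had 16.0, 23.2 and 18.6 CPM in the KO libraries and 11.7, 23.7 and 14.2 CPM in the WT libraries, with the same lowest and highest library as Mir10a. Gm24111 lies over Mirlet7f-1, and their reads may not be separable. For Mir196b the nearest were Mir328 (0.26), Mir374b (0.29) and Mir23a (0.31), where the median over 233 features was 0.69. For Mir10b they were Mir322 (0.69), Mir199a-2 (0.72) and Mir151 (0.72), where the median over 223 features was 1.24. The nearest features of Mir10b were further from it than those of the other members were from them, but this measure grows with a member's own spread. Within each genotype Mir322, Mir199a-2 and Mir151 had the same lowest and highest library as Mir10b. Across the 6 libraries none of them spanned as wide a range of log2 CPM.

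Of 19 miRNAs on a list for primitive blood cells, all had a read and 15 were tested, among them Mir10a, Mir10b and Mir196b; miR-146a is listed under its gene name Mir146. None of the 15 was called by edgeR. Their estimates were higher in KO for 12 and lower for 3 (median log2 fold change 0.34), and the 205 tested features annotated as miRNAs were 134 higher and 71 lower (median 0.21). Over all 624 tested features, 255 had higher and 369 lower estimates, with a median of -0.08. The list's split was 8 to 7 with the library size set to named miRNA reads (median 0.0071), where the 205 were 81 higher and 124 lower. It was again 8 to 7 without KO replicate 2 (median 0.11), where all tested miRNA features were 113 higher and 99 lower. Without WT replicate 1 it was 9 to 7, with 16 tested, against 136 to 85 for all tested miRNA features. The split widened to 14 to 1 without WT replicate 2 (163 to 54 for all tested miRNA features). It was 14 to 2 without KO replicate 1 (164 to 63) and 13 to 2 with DESeq2 (146 to 59).

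The most abundant of the list after Mir10a were Mir221, with 14.4 ± 4.6 CPM in KO and 10.7 ± 4.1 CPM in WT, and Mir181a-1, with 12.5 ± 7.4 CPM in KO and 9.73 ± 3.11 CPM in WT (SD, n = 3 each). The estimates of the 15 ran from -1.26 for Mir100 (SE 1.10, edgeR adjusted p = 0.759) to 1.75 for Mir126a, known from haematopoietic stem cells and endothelium (SE 0.80, edgeR adjusted p = 0.710). Mir10a, Mir10b and Mir196b, at 0.11, -0.26 and 0.22, lay between them.

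The 10 miRNAs taken as defining markers of primitive blood cells, with Mir10a the largest part, all had a read and summed to 62.7 to 82.9 CPM in the KO and 41.8 to 97.5 CPM in the WT libraries. Mir130a among them was at or near 0, with 1 read in KO replicate 1 and 1 in WT replicate 2.

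The lists taken as markers of mature and other cells had reads as well, and their order over the libraries differed between lists. How specific each miRNA is to the named cells was not tested. The myeloid list (Mir223, Mir142 and Mir142b, 3 of 3 listed) summed to 18.0, 26.1 and 24.6 CPM in the KO and 11.4, 24.1 and 16.0 CPM in the WT libraries. The stromal list (Mir140, Mir199a-1, Mir199a-2, Mir199b and Mir214, 5 of 5 listed) summed to 11.9, 19.7 and 15.4 CPM in the KO and 5.67, 16.4 and 10.4 CPM in the WT libraries. Most of each stromal sum was Mir140, at 10.8, 15.1 and 13.6 CPM in KO and 5.12, 14.3 and 9.12 CPM in WT. Within each genotype the myeloid and stromal sums had the same highest and lowest library as Mir10b. Mir10a and the median of the other 145 tested named miRNAs had them too, so this order was not particular to Mir10b. Single list members differed: Mir214 and Mir142b were lowest in KO replicate 3 among the KO libraries, and Mir142 was highest there. Mir142 lies inside Mir142b by position, so their reads may not be separable and their contrast may reflect how reads were assigned.

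The other lists had another order in at least 1 genotype. Mir150, the lymphoid marker, was at 4.002, 5.38 and 6.09 CPM in KO and 0.694, 3.19 and 2.28 CPM in WT. The endothelial list (Mir126a and Mir126b, 2 of 2 listed) summed to 5.65, 7.62 and 17.4 CPM in KO and 0.544, 5.42 and 3.43 CPM in WT. Both were highest in KO replicate 3, where Mir10b was not. Mir126b lies inside Mir126a by position, and their reads may not be separable. The erythroid list (Mir144, Mir451a, and miR-486a and miR-486b under the gene names Mir486 and Mir3107, 4 of 4 listed) summed to 4.31, 9.78 and 4.16 CPM in KO and 2.05, 3.41 and 4.79 CPM in WT, highest among WT in replicate 3. Mir486 and Mir3107 overlap on opposite strands, and their reads may not be separable. Mir122 of liver was at 0, 0.0193 and 0 CPM in KO and 0.375, 0.507 and 0 CPM in WT. The neural list (4 of 6 listed, Mir124a-1 and Mir124a-2 at 0) summed to 0.0619, 2.16 and 0.0634 CPM in KO and 0.788, 0.396 and 0.453 CPM in WT. The part of these cell types in the levels of Mir10a, Mir10b and Mir196b was not tested.

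**Figure D4:**
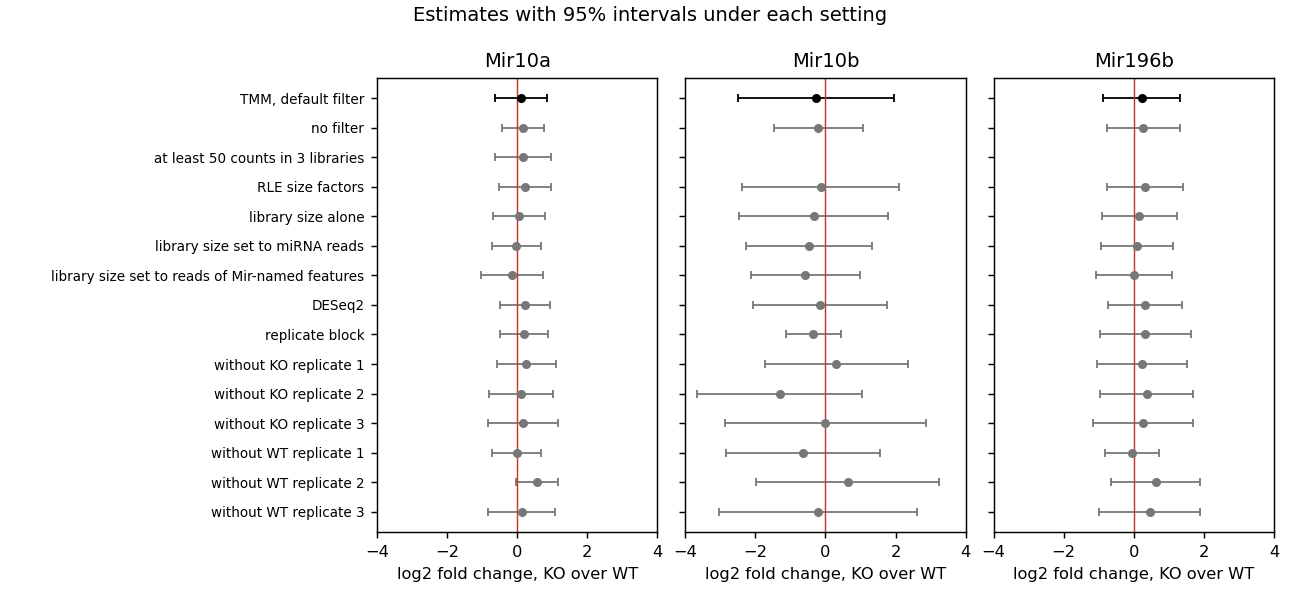
Log2 fold change of KO over WT for the 3 tested precursors with 95% intervals, under the settings named at the left; the black point is the fit described in the text (edgeR, TMM, default filter). Every interval crosses 0, and with any 1 library left out that of Mir10b is the widest of the 3. Mir10b and Mir196b have no point where at least 50 counts in 3 libraries were asked for.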

How the data were processed

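Total RNA was made into small RNA libraries and size-selected on a gel for snoRNA-sized inserts, per the labels' protocols. Trimmomatic 0.38, Bowtie2 2.3.4.1 and build GRCm38 were used, per the submitters' processing notes. No label names the counting tool, the strand setting or what was done with multiply matching reads. The authors deposited raw counts for features named by position, and only features with at least 1 read are listed, so a missing feature was set to 0. Of 1823 features, 1822 matched GENCODE M21. Listed names missing from GENCODE (3) were matched through RefSeq synonyms with the same position.

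Counts were tested with edgeR 4.0.16 (R 4.3.3) by the quasi-likelihood test: TMM, expression filter (minimum count 10, minimum total 15), KO against WT with no other term, Benjamini-Hochberg over all features tested, threshold 0.05. The SE is the log2 fold change over the square root of F. DESeq2 1.42.0 was an alternative. Log2 CPM used a prior count of 2. Exact permutation tests used scipy 1.17.1 and folding RNAfold 2.7.2. The fit was tested on simulated data. Every pair of replicates differed by more than counting noise (chi-square per degree of freedom 530 to 3308). The members, lists and rules for named features (all members, the 3 most similar features and the most abundant of each list) were chosen with earlier results of these data known. Normalization, filters, test, replicate block and left-out libraries were varied.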

Additional observations from a re-analysis of the deposited data

How the results depend on the processing

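None of the 5 precursors was called under any setting in which it was tested. Among all features 1 was called, and 13 with no filter, 0 with the replicate numbers as a block and 0 to 1 with any 1 library left out (0 without KO replicate 3 or any single WT library). The midpoint of the fold changes moved with the scaling: over the 624 features the median log2 value stood at -0.08 by TMM, 0.022 by RLE factors, -0.16 by library size alone, -0.24 by all miRNA reads and -0.46 by named miRNA reads. The direction of Mir10a depended on the scaling: its log2 fold change was -0.031 with library size set to all miRNA reads and -0.15 with library size set to named miRNA reads, a choice made after seeing the data because the feature Snord43, annotated as a miRNA, holds 43.4% to 60.7% of the miRNA reads. On those scales the Mir10 sum differed by -148 and -2387 reads per 1e6. Leaving out 1 library gave log2 fold changes of -0.017 to 0.58 for Mir10a, -1.30 to 0.64 for Mir10b, -0.063 to 0.62 for Mir196b, and -0.66 to 1.68 for Mir196a-2; for Mir196a-1, with 3 reads in all, the fitted values of -1.81 to 2.71 depend on the prior count and are no measure of a fold. It gave KO minus WT differences of -8.22 to 15.8 CPM for the Mir10 sum, -0.0785 to 0.169 CPM for the Mir196 sum, -0.0412 to 0.266 percentage points for the Mir196 share and -0.551 to 0.117 for the Mir10b share.

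Over all tested features the replicate numbers did not pair the libraries. Deviations from the genotype means correlated at -0.13, 0.40 and -0.36 between same-numbered libraries. Between differently numbered ones they ran from -0.46 (KO replicate 2 with WT replicate 3) to 0.59 (KO replicate 1 with WT replicate 3). Among the 205 tested features annotated as miRNAs, same-numbered libraries correlated at 0.09, 0.19 and -0.04. Differently numbered ones ran from -0.21 (KO replicate 1 with WT replicate 2) to 0.14 (KO replicate 1 with WT replicate 3) in that set. With the replicate block the log2 fold changes were 0.19 for Mir10a (adjusted p = 0.753 by edgeR), -0.35 for Mir10b (0.717) and 0.33 for Mir196b (0.760). The block lowered the SE of Mir10b from 0.93 to 0.30. The SE went from 0.31 to 0.26 for Mir10a and from 0.46 to 0.49 for Mir196b. With at least 50 counts in 3 libraries, Mir10b and Mir196b were not tested. Depth limits the Mir196a genes, with 3 and 8 reads in all.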
